A study of Mus musculus with 4 samples.

Results

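Axon guidance ligands and receptors were followed in the dentate gyrus of the mouse hippocampus. Members were all probe sets, outside the array controls, that the array annotation gives to exactly 1 gene with a symbol of the ephrin (Efn), Eph, semaphorin (Sema), plexin (Plxn), neuropilin (Nrp), Slit, Robo, netrin (Ntn), Dcc or Unc5 families. These were 58 of 12422 probe sets, for 45 of the 8251 genes named on the array. One of them, Unc50, shares only the start of its name with the netrin receptors and is described apart, which leaves 57 probe sets of 44 guidance genes. The rule found 25 ligand genes on 32 probe sets and 19 receptor genes on 25, and no Slit gene was among them.

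RNA came from young male C57BL/6J mice that were handled and otherwise left untreated. The 4 single-channel arrays, 1 each for 1, 2, 4 and 6 h, are named by the hours elapsed since the last shock given to experimental animals of the same study, which were not analysed here. Mouse numbers and pooling are not stated in the labels, so any spread below is a spread between 4 RNA samples, which may be technical. The unit is array intensity on a linear scale, which does not rank transcript amounts between genes, and the number of arrays limits its precision. Where 4 values are given in a row, they are in the order of 1, 2, 4 and 6 h.

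Guidance cues are proteins that attract or repel growing axons through receptors on the growth cone. Ephrins bind Eph receptor tyrosine kinases and can signal in either direction across a cell contact. Semaphorins act through plexins, secreted ones usually with a neuropilin as co-receptor, netrin acts through Dcc and the Unc5 receptors, and Slits through Robo receptors. In the adult hippocampus, members of these families are also known at synapses and dendritic spines and in the wiring of mossy fibres, the axons of granule cells.

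As a group, the guidance genes varied between these arrays about as much as other genes did. Of the 39 measurable members, 21 (53.8%) stayed under 1.5-fold from lowest to highest array, beside 54.1% of all measurable probe sets, and 7 (17.9%) spanned at least 2-fold, beside 18.5%. A probe set counted as measurable where its mean log2 intensity reached 6.66, the 40th percentile of all probe sets, after values under a floor of 16.4 (the 10th percentile) had been set to it. Of the 58 members, 39 passed (33 genes), or 67.2%, beside 60% of all probe sets by construction of the filter. The median SD between arrays of the 39 was 0.245 on the log2 scale, and that of all 7453 probe sets that passed was 0.243. Their highest array exceeded their lowest by a median of 1.49-fold, and that of all 7453 by 1.46-fold. The 20 ligand probe sets had a median SD of 0.313 and the 18 receptor probe sets 0.195, a difference that was not tested.

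**Figure D1:**
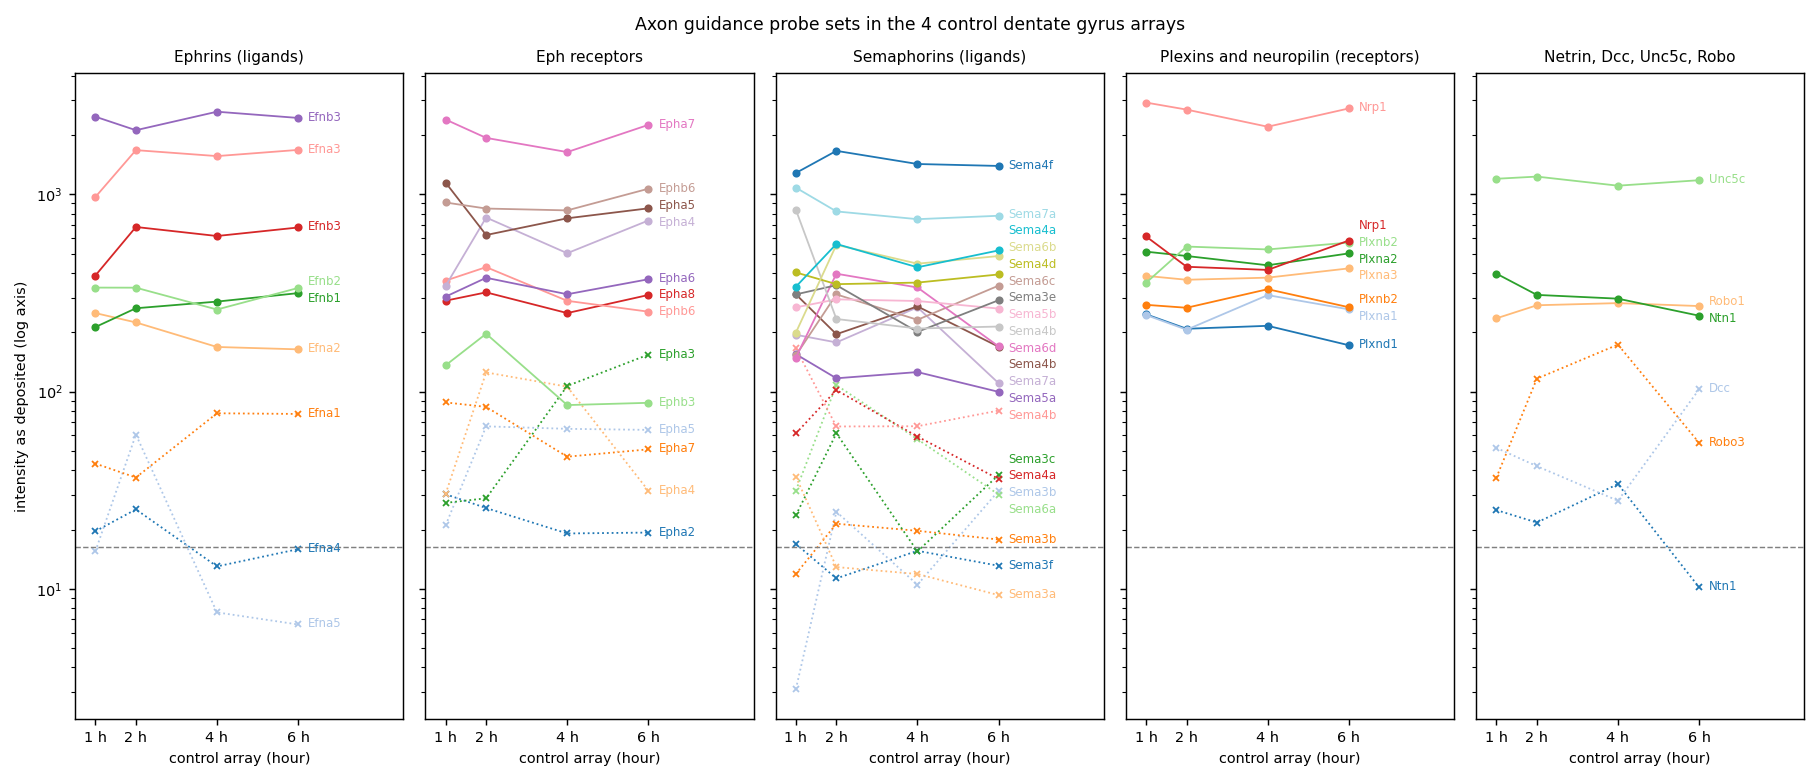
Intensity as deposited (log axis) against the hour of the control array, 1 line per probe set, in panels by family. Solid lines with dots are the measurable probe sets, dotted lines with crosses those under the filter, and the dashed line is the floor of 16.4. Unc50 is not drawn, which leaves 38 solid lines for the 39 measurable members. The 21 members that span less than 1.5-fold include Unc50. A Sema4b probe set is at 837 at 1 h and Sema6b at 199, apart from their later values.

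Arrays differed in more than these genes. The 3' to 5' ratio of the Gapdh control, a sign of RNA integrity, was 4.88 at 1 h and between 1.13 and 1.33 on the other arrays. Summed oligodendrocyte markers (7 of 9 listed genes, 14 probe sets) were highest at 2 h, at 21851 against 14503 to 14958, and summed choroid plexus markers (4 of 7 genes) ran from 2168 at 1 h to 6778 at 6 h. Ttr, at 225 at 1 h and 3009 at 6 h, made up most of the choroid plexus rise. Kl was highest at 1 h (279.8), and the Folr1 probe sets differed in their highest hour. Sums of endothelial and mural markers (10 of 10 genes) were 2205, 2253, 2189 and 1662, lowest at 6 h. Those of granule cell markers (5 of 7 genes, among them Prox1, Calb1 and Dsp) lay between 4725 at 1 h and 5992 at 6 h. The meningeal sum was 24763, 33142, 44018 and 27776, highest at 4 h, and the immature neuron sum 14411, 17919, 18657 and 20382, lowest at 1 h. Ptgds made up most of the meningeal sum, and each of its probe sets was highest at 4 h. The other meningeal genes differed, with Dcn highest at 4 h (867) and Col1a1 lowest there (66.7) on its brighter probe set. The brightest probe sets of the lists included Calb1 of granule cells (mean 2196), Mobp of oligodendrocytes (5430.4), Cldn5 of endothelium (381) and Igf2 of the choroid plexus (2732). Those of other lists were Rgs14 (CA pyramidal cells, 3425.5), Cck (interneurons, 12645), Aldoc (astrocytes, 11463), Ctss (microglia, 2619.5), Ptgds (meninges, 10403), Pde1b (striatum and thalamus, 2159) and Tubb3 (immature neurons, 8137). None of the marker lists had a probe set under the floor on all 4 arrays. The part of these differences in the results below was not tested. In RNA from whole tissue, fewer cells of a type and less RNA per cell cannot be told apart.

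Of the ephrin-A ligands, which are held to the membrane by a lipid anchor, 2 of 5 were measurable. Efna3, a ligand known for its role at hippocampal spines, read 970.3 on the 1 h array and 1677, 1565 and 1682 on those of 2, 4 and 6 h, a mean of 1474 ± 340 (SD, n = 4). The 1 h array stood below the other 3, which lay within 1.07-fold of each other. Efna2 read 250.3, 224, 168.5 and 164 in the same order of hours, so each array was lower than the one before. Efna1 stayed under the filter at 43.2, 36.7, 77.7 and 77.1. Efna4 read between 13.0 and 25.3 and was under the floor on 2 arrays, and Efna5 was under it on 3 and read 60.6 at 2 h.

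All 3 ephrin-B ligands, which span the membrane and signal through their cytoplasmic tails, were measurable. Efnb3 had a probe set at 2479, 2117, 2627 and 2443 from 1 to 6 h, with a mean of 2416 ± 215. A second Efnb3 probe set read 388, 684, 616 and 679.8. The first was level to within 1.24-fold, while the second was low at 1 h alone, at 0.589 times the geometric mean of the later arrays. Efnb1 read 213, 265, 286 and 316, and was the only one of the 39 members to read higher on each later array, a pattern that did not pass the trend test below. Efnb2 was at 337, 336.7 and 335.5 on the 1, 2 and 6 h arrays and at 261 on the 4 h array.

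Among EphA receptors, 5 of 7 genes were measurable. Epha7 read 2398, 1935, 1640 and 2252 on its brighter probe set, a mean of 2056 ± 338, and 88.2, 83.7, 46.8 and 51.0 on a dim one. On each of these probe sets the 1 h array was highest and the 4 h array lowest. Epha4, which binds ephrins of the A and the B class, read 344, 764, 504 and 737. Its lowest value was at 1 h and its highest at 2 h, 2.22-fold apart, and a dim second probe set had the same extremes (30.3 at 1 h and 125 at 2 h).

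Epha5 gave opposite pictures on its probe sets. The brighter read 1148, 623, 757 and 850.2, highest at 1 h, and the dim one 21.0, 66.7, 64.8 and 64.0, lowest at 1 h. Epha6 (303 to 378) and Epha8 (250.3 to 319) stayed within 1.25-fold and 1.27-fold. Epha2 did not exceed 30.2 on any array. Epha3 was also under the filter, and read 27.3 and 28.8 on the early arrays and 107 and 154 on the late ones.

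Both EphB genes were measurable. Ephb6, a family member without kinase activity, read 910.2, 848, 830.1 and 1069 on 1 probe set (914 ± 108) and 365.6, 428, 289 and 254.5 on a weaker one, whose identifier marks relaxed rules of probe choice. These probe sets had different highest arrays, 6 h and 2 h. Ephb3 read 136, 197, 85.5 and 87.8. Its 2 h value was 2.30-fold its 4 h value, and the 4 and 6 h arrays were close to each other.

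Secreted class 3 semaphorins were mostly dim: 1 of 5 genes was measurable. Sema3e, which can bind Plxnd1 without a neuropilin, read 311, 347, 201 and 291, lowest at 4 h, and averaged 287 ± 62.0. Sema3a, the classic repellent that acts through Nrp1, was above the floor at 1 h alone, at 37.1. Sema3f did not exceed 16.9, and the Sema3b probe sets read 3.1, 24.6, 10.5 and 31.4, and 11.9, 21.4, 19.7 and 17.8. Sema3c read 23.6, 61.5, 15.5 and 37.8.

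Transmembrane and anchored semaphorins held 5 of the 7 members whose highest array was at least 2-fold above their lowest. These 5 were among 12 measurable probe sets of this class, which was not tested against the other families, and the 7 of 39 are a share near the background of 18.5%. They were Sema4b, Sema6b, Sema6c, Sema6d and Sema7a, and Epha4 and Ephb3 completed the 7. Without the 1 h array, and with floor and filter set anew, 4 of 40 members passed, where 7.92% of all probe sets did.

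Sema4b showed the widest range of any measurable member. One of its probe sets read 837 at 1 h and 234, 209 and 214 at 2, 4 and 6 h, 4.00-fold from lowest to highest. Its identifier marks possible cross-hybridisation with related sequences. Another read 311.5, 196, 271 and 169, and the dimmest, under the filter, 166, 66.6, 66.8 and 80.2. All 3 were highest on the 1 h array, at 3.83, 1.5 and 2.34 times the geometric mean of the other arrays. Without the 1 h array the first was level to within 1.12-fold. The Gapdh ratio of the 1 h array was 4.88, and its part in these values was not tested.

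Class 6 semaphorins, transmembrane ligands of plexin-A receptors, had their lowest value on the 1 h array in all 3 measurable genes. That array was lowest for 30.5% of all measurable probe sets, and the class was not tested against this share. Sema6b read 199 at 1 h and 555, 446 and 487 later, 2.79-fold from lowest to highest and 1.25-fold without the 1 h array. Sema6c, on a probe set that holds fewer probes than usual, read 153, 311, 231 and 345, with the 6 h array highest. Sema6d read 149, 396, 338 and 169.7, so its 1 and 6 h arrays were low and the middle ones high. Its spread persisted without the 1 h array, at 2.34-fold. The oligodendrocyte marker sum was also highest at 2 h, and was 14503 at 1 h and 14648 at 4 h. The 11 measurable probe sets of that list had median log2 differences from the other arrays of -0.376, 0.659, -0.073 and -0.058. A part of cell composition in the Sema6d values was not tested. Sema6a was under the filter at 31.5, 108, 57.4 and 30.1, again with 2 h highest.

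Sema7a, a lipid-anchored semaphorin that also signals through integrins, read 1082, 820.3, 749 and 779.6 on its brighter probe set and 194, 178, 268 and 110.5 on its weaker one. The former was highest at 1 h, and the latter highest at 4 h and lowest at 6 h, 2.42-fold apart. Sema4f was bright on all arrays, at 1284, 1663, 1427 and 1395 (1442 ± 160). Sema4a read 340.3, 561, 427 and 520.1, and a dim second probe set 61.4, 102, 59.2 and 36.1. On each, the 2 h array was highest.

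The remaining members of the class varied less. Sema5b read 268, 294, 288 and 264, within 1.11-fold, and was among the 3 members with the smallest spread. Sema4d, which acts on plexin-B receptors, read 402, 351, 357 and 393. Sema5a read 155, 117, 126 and 99.8, the highest being 1.55-fold the lowest.

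**Figure D2:**
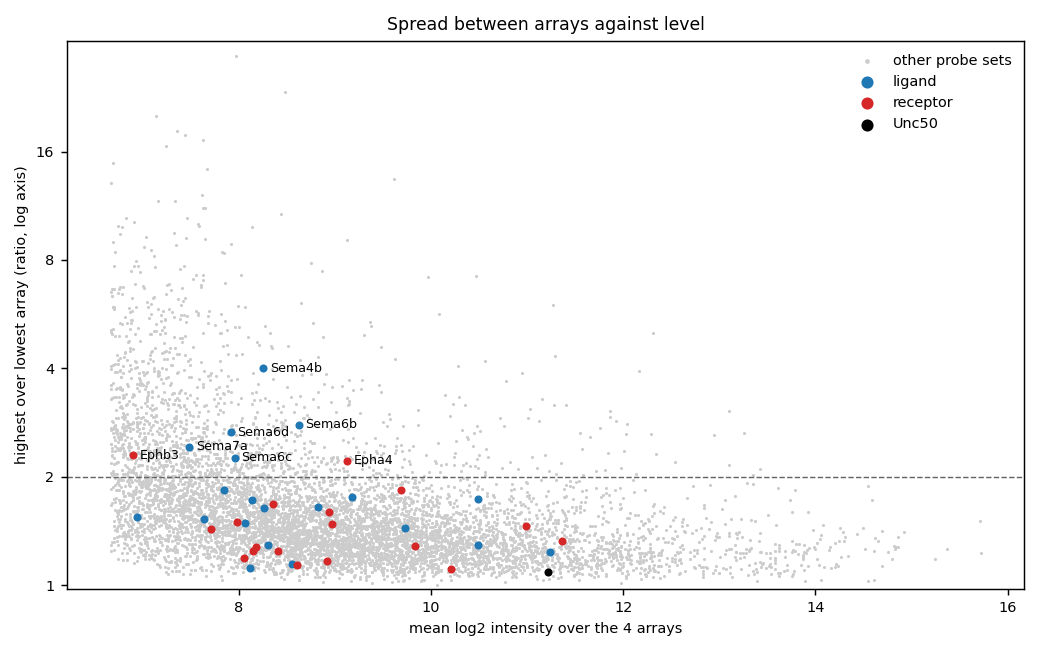
Ratio of the highest to the lowest array (log axis) against the mean log2 intensity over the 4 arrays, for all 7453 measurable probe sets in grey and the 39 members in colour. The dashed line marks 2-fold. The 7 members above it are named, and Sema4b, at 4.00-fold, is the highest of them.

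Plexins, the signalling receptors of semaphorins, were all measurable (5 genes on 6 probe sets), and none reached a 2-fold range. Plxna2 read 513, 487, 437 and 502, and Plxna3 386.5, 369, 378.5 and 422, with SDs of 0.10 and 0.08 on the log2 scale. Plxna1 read 245, 206, 309 and 261. Plxnb2 was at 356.5 at 1 h and at 544, 526 and 569.9 later on 1 probe set, while a weaker one gave 276, 266, 331 and 268. The low 1 h value of the former did not appear on the latter. Plxnd1, the Sema3e receptor, which is prominent in blood vessels, read 247, 208, 216 and 172.

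Nrp1, co-receptor of class 3 semaphorins and of vascular endothelial growth factor, had a bright probe set at 2923, 2693, 2205 and 2729 (2637 ± 306) and a weaker one at 612, 430, 414 and 584. The probe sets shared their extremes, with 1 h highest and 4 h lowest on each. They differed at 2 h, at 1.03 and 0.812 times the geometric mean of the other arrays. Of the 6 genes with more than 1 measurable probe set, Nrp1 and Sema4b were those whose probe sets had the same highest array. Over all 12 genes with more than 1 probe set, dim ones included, this held for 5.

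**Figure D3:**
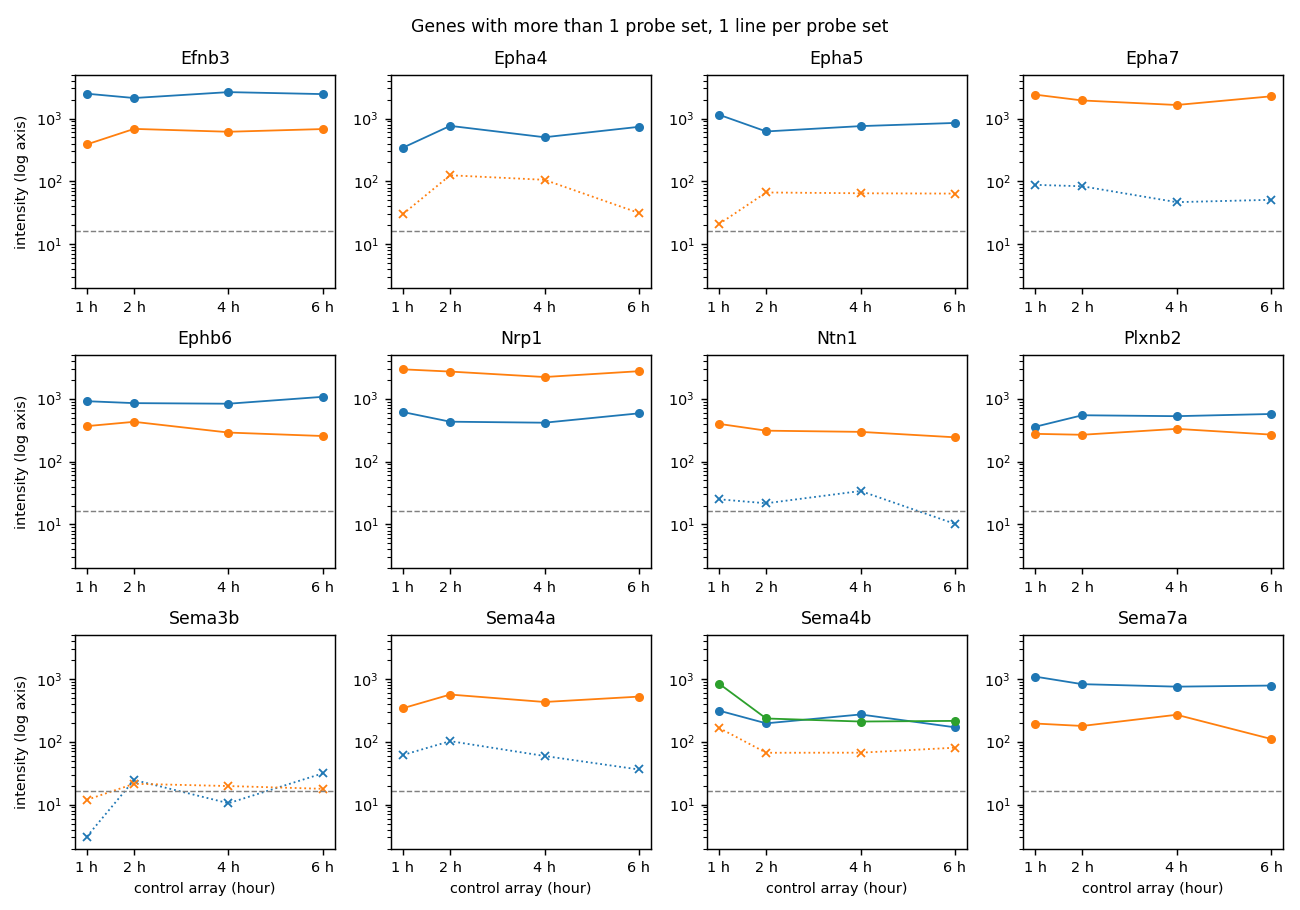
Intensity (log axis) against the hour of the array for the 12 genes with more than 1 probe set, 1 line per probe set. Crosses with dotted lines are probe sets under the filter, and the dashed line is the floor of 16.4. The Nrp1 lines are highest at 1 h and lowest at 4 h, and all 3 of Sema4b start highest at 1 h. Those of Epha5 part at 1 h (1148 on the brighter and 21.0 on the dimmer).

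Of the netrin system, Unc5c, which mediates repulsion from netrin, was the steadiest guidance gene. It read 1201, 1232, 1108 and 1181, a mean of 1180.2 ± 52.7, and its log2 SD of 0.065 was the second smallest among the 39 members. Ntn1, the ligand itself, read 397, 309.5, 296 and 243 on its brighter probe set, lower on each later array, and 25.1, 21.7, 34.0 and 10.2 on a dim one. Dcc, the attractive netrin receptor, was under the filter at 51.9, 41.9, 28.0 and 102.6. Robo1, a Slit receptor, read 235, 274, 281 and 272, within 1.20-fold. Robo3, known for controlling midline crossing of commissural axons, was under the filter at 36.6, 116, 173 and 55.1. Unc50, the member that is no guidance gene, read 2467, 2348, 2265 and 2453, with the smallest SD of all 39 (0.058).

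The dim members were 19 probe sets with mean intensities from 14.2 to 95.3. In 8 of them at least 1 array lay under the floor. For 12 genes no probe set was measurable (Efna1, Efna4, Efna5, Epha2, Epha3, Sema3a, Sema3b, Sema3c, Sema3f, Sema6a, Robo3 and Dcc), and 6 dim probe sets belonged to genes with a measurable one. A dim value does not show that a gene is off, since probes differ in efficiency.

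Each array was next set against the mean of the other 3 (log2 scale), a comparison without replicates and therefore without a p-value. At 1 h, 1 of 39 members was at least 2-fold higher (Sema4b), beside 1.8% of all measurable probe sets, and 1 was at least 2-fold lower (Sema6b), beside 5.29%. Just short of 2-fold on the lower side at 1 h were Sema6c, Epha4 and Sema6d, at 0.523, 0.523 and 0.526 times the other arrays. No member differed 2-fold at 2 h (background 1.81% higher and 1.58% lower), at 4 h (1.42% and 1.4%) or at 6 h (0.912% and 1.85%). The nearest were Ephb3 and Sema6d at 2 h, at 1.95 and 1.94 times the other arrays, and Sema7a at 6 h, at 0.526 times. These counts moved when an array was left out, with floor and filter set anew. Leaving out the 1 h array gave 1 of 40 members at 2 h, 1 at 4 h and 2 at 6 h, where 3.05%, 3.1% and 2.39% of all probe sets stood 2-fold apart. Omitting the 4 h array gave 4 of 39 members for the 1 h array, 1 for the 2 h array and 1 for the 6 h array, beside 7.81%, 4.19% and 3.88% of all. Omission of the 2 h array gave 2 of 38 for the 4 h array and 1 for the 6 h array, beside 3.56% and 4.29%, and that of the 6 h array 1 of 39 for the 4 h array, beside 3.92%. With so few members, these counts are not set apart from the shares of all probe sets.

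The 1 h array was the lowest of the 4 for 12 members, or 30.8%, where it was lowest for 30.5% of all measurable probe sets. It was the highest for 15 members, or 38.5%, beside 35.4%. The members' median log2 difference from the other arrays at 1 h was 0.055, and that of all measurable probe sets 0.049. Among the 2, 4 and 6 h arrays alone, 3 of 39 members (Ephb3, Sema6d and Sema7a) still spanned 2-fold, or 7.69%, beside 8.22% of all. These shares are near those of the array as a whole.

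**Figure D4:**
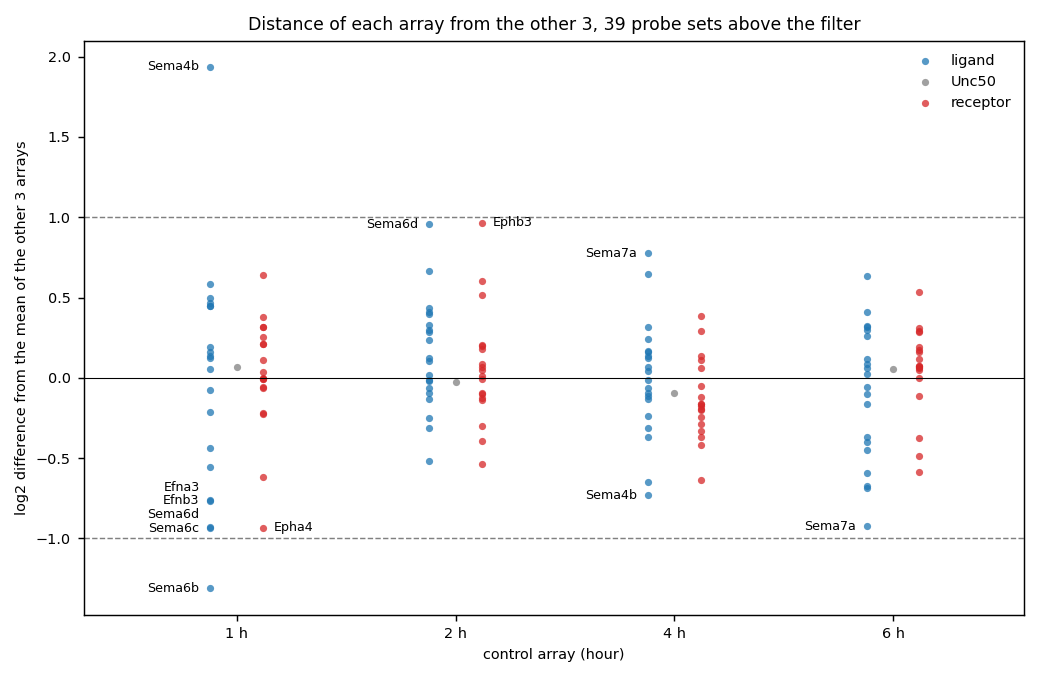
Log2 difference of each control array from the mean of the other 3, for the 39 measurable members, with ligands in blue, receptors in red and Unc50 in grey. Dashed lines mark 2-fold, and members at least 0.7 away from 0 are named beside their point. Points beyond 2-fold appear at 1 h alone, Sema4b at 1.94 and Sema6b at -1.31.

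A linear trend of log2 intensity over the hours was tested with limma on all 7453 probe sets. None of the 39 members passed an adjusted p of 0.05, where 0.0134% of all probe sets (1 of 7453) did, and the smallest adjusted p among members was 0.874. None reached an unadjusted p under 0.05 either, where 4.4% of all did. The steepest slopes were those of Sema4b, at -0.31 ± 0.13 (SE) log2 units per hour, and Ephb3, at -0.20 ± 0.13, on the negative side. On the positive side they were Sema6b, at 0.17 ± 0.11, and Sema6c, at 0.16 ± 0.10. Each had a limma adjusted p of 0.874, and over the alternatives the smallest adjusted p of any member ran from 0.217 to 1. The Sema4b slope is that of its probe set open to cross-hybridisation, and its other measurable probe set had a slope of -0.12 ± 0.09. Without the 1 h array the slope of the former was -0.03. That of Sema6b turned to -0.05 and that of Sema6c was 0.04, while that of Ephb3 was steeper, at -0.29. With 4 arrays, missing the threshold does not show that these genes held level.

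Slopes were above 0 for 17 of 39 members, or 43.6%, and for 46.5% of all measurable probe sets. Scaling to a common median, which adds 0.08 (log2) to the 6 h values, turned this to 25 of 39 (64.1%) and to 58.1% of all. The median slope of the members was -0.005 log2 units per hour, and that of all measurable probe sets -0.006.

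Partners and intracellular effectors of guidance receptors, a list of 95 genes that holds no member, were represented by 59 genes on 82 probe sets, of which 62 were measurable. None of the 62 passed the trend test (smallest limma adjusted p = 0.874), and 3 had an unadjusted p under 0.05, or 4.84%, a share near the 4.4% of all measurable probe sets. These were Gap43, the growth cone protein (1367, 1483, 1782 and 2043), Evl, a regulator of actin filament growth (558, 619, 879.8 and 887), and Tyro3, a receptor kinase (467, 591, 782 and 750.2), each higher at 4 and 6 h than before. A second Evl probe set ran the other way, from 605 at 1 h to 350.1 at 6 h. So did a second Tyro3 probe set, under the filter, which read 129.1, 109.5, 95.4 and 39.5.

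A 2-fold range was found for 6 of the 62, or 9.68%, against the background of 18.5%. By median range they did not vary less, at 1.52-fold beside 1.46-fold for all measurable probe sets. A range under 1.5-fold was found for 48.4% of them, beside 54.1% of all. Their median log2 intensity was higher, at 9.04 beside 8.79, and these differences were not tested. Rnd2, a small GTPase that acts with plexins, read 145 at 1 h and 613, 514.5 and 548 later, the same low 1 h array as in Sema6b. Limk1, the kinase that inactivates cofilin, read 1127.5, 2124, 1595 and 639 on a probe set chosen by relaxed rules, and between 248 and 382 on its other. Enah read 160, 114, 275 and 284 on a probe set open to cross-hybridisation and from 1174 to 1474 on its brighter one, and Nck2, an adaptor protein, 74.7, 158, 116 and 174. Rhoa, the GTPase of growth cone collapse, had probe sets at 93.0, 261.5, 165 and 232, at 561, 754, 358 and 453, and at 433.5, 418, 499 and 508. The last of these was level to within 1.22-fold.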

How the data were processed

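Total RNA of the dentate gyrus was measured on 4 single-channel arrays. Linear intensity values were deposited by the authors for each array, and the sources used here do not give the software. The 2%-trimmed mean over all 12488 rows was 500.3 on each array, so values were used as deposited. The 66 control rows were left out. Genes came from the platform annotation: 10833 probe sets have 1 gene, and all 45 member symbols equal the current ones for their identifiers in a GRCm38.p6 gene table, used for names only.

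Values under the 10th percentile were set to it, log2 was taken, and probe sets at or above the 40th percentile of mean log2 were kept. The trend used R 4.3.3 and limma 3.58.1, with lmFit and an intensity-dependent prior in eBayes, 2 residual degrees of freedom, two-sided, Benjamini-Hochberg over 7453 probe sets at 0.05. It was tested on simulated data with slopes steeper than that of any measurable member, so recovery of slopes of the size seen here is not known. The 4 arrays form 1 group of controls, and no comparison between groups exists.

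Members and lists were chosen with earlier results of these data known. Values on all arrays are given for members with a 2-fold range, for the brightest of each family, for genes with several probe sets and for the 3 of smallest SD; partner genes with an unadjusted p under 0.05 or the largest ranges, and the brightest marker of each list, are named. Further members were added after their values were seen. Other scalings, filters, floors, fold sizes, time scales and variance priors, and leaving out each array, were alternatives. No sequence is printed because the sources used here held no probe or protein sequences.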

Additional observations from a re-analysis of the deposited data

Results flagged for a closer look

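In 5 of the 39 measurable probe sets, 1 array stood apart from the other 3 by more than Dixon's 95% value for 4 samples (the gap to the nearest array as a share of the whole range, on the log2 scale). That is 12.8%, where the same comparison marks 8.61% of all 7453 measurable probe sets, and chance flags about 1 in 20 such groups. The array that stood apart was the 1 h array in 3 of the 5, as it was in 60.7% of all probe sets so marked. Efna3 read 970.3 there, below the later arrays (gap 0.869 of the range), Sema4b 836.5, above them (0.92), and Plxnb2 356.5 on 1 probe set, below them (0.83). The Gapdh ratio of that array was 4.88, and its part in these values was not tested. At 4 h, Efnb2 read 260.9, below the other arrays (0.983), and the other Plxnb2 probe set 330.8, above them (0.842).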

How the results depend on the processing

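No member and no partner gene passed the trend test under any alternative run. In limma the smallest adjusted p of a member lay between 0.217 (without the 2 h array) and 1, and that of a partner between 0.188 (without the 1 h array) and 1. Of 112 counts recomputed, 85 stayed within 1.5 times the reported count and 27 did not. The 85 include the trend test counts, which were 0 throughout, and the counts above the filter, which the filter percentile largely sets. With no filter, 20 of 58 members and 25 of 82 partner probe sets had a 2-fold range (38.2% of all probe sets), and 8, 6, 5 and 3 members stood 2-fold from the other arrays at 1, 2, 4 and 6 h (16.4%, 11.7%, 12.1% and 10.6% of all). With a filter at the 60th percentile, 3 of 28 members and 3 of 50 partner probe sets had a 2-fold range (8.11% of all). At 1.5-fold in place of 2-fold the ranges counted 18 of 39 and 32 of 62 (45.9% of all), and the distances 10, 4, 5 and 6 at the 4 hours (21.2%, 12.5%, 10.2% and 10.2%). At 3-fold, the ranges counted 1 and 2 (6.48%) and the distance at 1 h 1 (2.33%). Leaving out the 1 h array, with floor and filter set anew, gave 4 members with a 2-fold range (7.92% of all). Omitting the 2, 4 or 6 h array gave 6 each time (13.4%, 14.4% and 14.1%). In these omissions the distances counted 2 to 4 members at 1 h (7.21% to 7.81% of all) and 0 to 1 at 2 h (3.05% to 4.64%). They counted 1 to 2 at 4 h (3.1% to 3.92%) and 1 to 2 at 6 h (2.39% to 4.29%). The slope of Sema6b turned from 0.174 to -0.047 without the 1 h array and was at most 0.309 in the other omissions; the cause was not tested. Scalings and floors left the other counts within 1.5 times. The number of arrays and the dimness of 19 members limit what can be seen.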
